A study of Mus musculus with 17 samples.

Results

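The contractile apparatus of the heart muscle cell is described here by 47 genes that encode its sarcomere, Z-disc, costamere and desmosome. They were taken by gene symbol from a list of 47, and all 47 were found among the 21798 genes of the deposited matrix. All 47 also passed the filter on low values (at least 0.5 CPM, read counts scaled to a common library total, in at least 3 libraries), as did 16218 genes in all. The list was divided by known location into the thick filament with titin and the M-band (8 genes), the thin filament (8), the Z-disc (12), desmin with the chaperones of myosin assembly (4), muscle ubiquitin ligases (4), the costamere (5) and the intercalated disc (6).

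Bulk RNA-sequencing was performed on the left ventricular apex of male C57Bl6/J mice, 1 library per mouse, 3 weeks after transverse aortic constriction (TAC), which narrows the aorta and loads the left ventricle, or after Sham surgery. Mice were 7 to 8 weeks old at surgery and received 6 oral gavages from 1 week afterwards. These held 50 μg/kg of 29P, an oral prodrug directed at αvβ3 integrin, or saline vehicle (Veh). There were 5 Sham and 3 TAC mice given vehicle (Sham Veh, TAC Veh) and 3 Sham and 6 TAC mice given 29P (Sham 29P, TAC 29P), and the labels name no transgene or deletion for any of them. Two-sided limma tests on log2 CPM were adjusted over all 16218 genes by the Benjamini-Hochberg method, and a gene was called at an adjusted p of 0.05 or less. Per the study's text, a TAC Veh library that grouped with Sham hearts was removed by the authors and is not analysed here, so TAC Veh was selected in part for differing from Sham, which bears on every comparison with TAC Veh. The p-values measure the spread between these mice. In bulk tissue, fewer cells of a type and less RNA per cell cannot be told apart.

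Sarcomeres are the repeating units of heart muscle, in which myosin thick filaments pull on actin thin filaments that are anchored at the Z-disc. Desmin filaments link Z-discs to each other, to costameres, where the Z-disc meets the cell membrane and matrix, and to desmosomes, which join neighbouring cells at the intercalated disc. Mutations in many of these genes cause inherited cardiomyopathy, and pressure overload makes heart muscle cells add sarcomeres.

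Estimated depth was 14.2 to 23.8 M reads per library. Mitochondrial-encoded genes took 29.1 to 40.0% of the CPM in Sham libraries and 23.6 to 29.4% in TAC libraries, and the largest Sham shares were in S6, S14 and S19. CPM are shares of a total. Over all genes tested the log2 fold change had a median of 0.36 for TAC against Sham averaged over both treatments. Trimmed mean of M-values (TMM) factors moved every gene by -0.33 in that comparison, which left a median of 0.03. Totals without mitochondrial-encoded genes left a median of 0.19. Surgery results are given on deposited CPM with values or counts under TMM factors beside them. In 3 libraries, S18 (TAC 29P), S19 and S20 (both Sham Veh), 6 atrial markers summed to 1847 to 2825 CPM, against 39.9 to 94.5 in the other 14. The summed level of 7 cardiomyocyte markers (Myh6, Tnni3, Actc1, Ryr2, Pln, Ckm and Mb) overlapped between surgeries. It was 32756 to 45468 CPM in Sham and 34483 to 43489 CPM in TAC. Myh6 alone held 10019 to 20476 CPM per library, and Tnni3 is reported below among other sarcomere genes. The sum is thus no separate measure of cardiomyocyte content. Of the 7, 1 rose and 2 fell (0 and 4 with TMM factors). Skeletal muscle markers summed to no more than 8.53 CPM in any library.

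Promoter windows were searched for motifs, and the windows printed here were chosen among those that hold one. RefSeq windows on GRCm38.p6, from 250 bases before to 50 bases after each gene start, were held for 36 of the 47 members (48 windows). Both windows of Synpo2l, the member with the largest difference after TAC, held a MEF2 site, bound by a muscle transcription factor family. Mybpc3 held 1 as well, and Myom1 held a CArG box, the site of serum response factor, in a window whose start lies inside the annotated gene (chr17:71002633-71126856) and not at its first base. The second Synpo2l window likewise lies inside its annotated gene (chr14:20658946-20668354). Sequences run 5′ to 3′ on the strand of the gene, and capitals mark the motif.
Synpo2l, chr14:20668305-20668604, minus strand: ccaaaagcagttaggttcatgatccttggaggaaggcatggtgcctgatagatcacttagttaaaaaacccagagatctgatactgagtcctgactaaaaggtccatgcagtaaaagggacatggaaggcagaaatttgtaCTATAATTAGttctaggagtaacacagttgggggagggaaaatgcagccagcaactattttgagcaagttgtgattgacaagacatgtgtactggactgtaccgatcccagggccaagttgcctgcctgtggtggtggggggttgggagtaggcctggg
Synpo2l, second start, chr14:20664525-20664824, minus strand: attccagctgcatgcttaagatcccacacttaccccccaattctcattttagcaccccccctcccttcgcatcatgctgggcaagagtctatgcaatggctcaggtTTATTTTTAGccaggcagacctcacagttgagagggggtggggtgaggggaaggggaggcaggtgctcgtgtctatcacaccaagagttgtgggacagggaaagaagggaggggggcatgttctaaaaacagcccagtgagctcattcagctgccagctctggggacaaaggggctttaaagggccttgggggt
Myom1, internal start, chr17:71019307-71019606, plus strand: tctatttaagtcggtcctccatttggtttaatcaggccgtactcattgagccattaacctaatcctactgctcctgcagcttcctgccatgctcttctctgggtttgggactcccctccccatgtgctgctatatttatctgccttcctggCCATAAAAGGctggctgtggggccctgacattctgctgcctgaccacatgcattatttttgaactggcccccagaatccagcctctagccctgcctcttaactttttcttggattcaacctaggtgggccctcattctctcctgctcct
Mybpc3, chr2:91117894-91118193, plus strand: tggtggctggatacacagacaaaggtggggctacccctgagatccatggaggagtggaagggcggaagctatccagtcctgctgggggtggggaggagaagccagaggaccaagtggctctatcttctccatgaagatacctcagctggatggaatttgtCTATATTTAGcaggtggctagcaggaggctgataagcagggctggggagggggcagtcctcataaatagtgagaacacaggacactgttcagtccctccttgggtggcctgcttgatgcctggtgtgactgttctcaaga
With both strands searched, a MEF2 site was present in 6 of 36 members (16.7%: Ttn, Mybpc3, Myoz2, Synpo2, Synpo2l and Dmd) and in 2.43% of 11297 tested genes with a window. A CArG box was present in 6 members (16.7%: Myl3, Myom1, Nebl, Ldb3, Vcl and Dmd) and in 1.59% of genes. TATAAA, a core promoter element that can overlap a MEF2 site, was found in 8 members (22.2%) and 9.33% of genes, and CATTCC, the core of the TEAD site, in 14 (38.9%) and 14.9%. A match describes letters in this window and does not show binding. Mylk3, called after TAC under both scalings like Synpo2l, held CATTCC but neither a MEF2 site nor a CArG box. Des, Myot, Pdlim7 and Dsg2, also called under both, had no match to any motif searched. For these genes a window without a match was not told apart from an absent window. Members without a window could not be searched. Myom1 and Mybpc3 were called on deposited CPM but not with TMM factors. Dmd held both muscle motifs and Synpo2l only the MEF2 site, and their TAC log2 fold changes were 0.38 and 1.74. This pair was picked with the values known, and motif content was not tested against the surgery difference.

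Levels were first compared per kilobase of annotated exon in Sham hearts. Filament subunits stood highest: Myl2, the ventricular regulatory light chain, had a Sham mean of 2774 CPM per kb, followed by Tnnc1 (troponin C) at 1429, Myl3 (the ventricular essential light chain) at 1424 and Tpm1 (tropomyosin) at 1105 CPM per kb. At the other end were Dmd at 3.17, Pdlim3 at 2.93, Ctnna3 at 1.94 and Sgcd at 0.997 CPM per kb. Titin, encoded by the longest transcript of the list, reached 22.4 CPM per kb and rank 33 of 47. Together the members took 3.63 to 4.65% of all CPM in Sham libraries and 4.20 to 4.78% in TAC libraries, so these ranges overlapped.

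After TAC, on deposited CPM, the members with the largest differences were Synpo2l and Pdlim7 of the Z-disc and Des, and none of the 4 ubiquitin ligases passed the test. Averaged over both treatments, 21 of 47 members rose on deposited CPM, where 49.4% of all genes tested rose, and 2 fell, where 3.08% fell. The share of members that rose was thus near that of all genes. The members' median log2 fold change was 0.24, below the 0.36 of all genes, and 31 of 47 members lay below that median. With TMM factors 4 members rose (14.3% of all genes) and 14 fell (12.7%). Synpo2l, Des, Myot and Pdlim7 rose and Mylk3 and Dsg2 fell under both scalings. Of the other 17 members that rose, Tnnc1, Myoz2, Ldb3 and Smyd1 had values below 0 with TMM factors, and the remaining 13 kept their direction but not their call.

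The surgery comparison within each treatment was made on separate libraries. In TAC Veh against Sham Veh, 14 members rose and 1 fell (22.5 and 1.91% of all genes). In TAC 29P against Sham 29P, 12 rose and 2 fell (31.4 and 1.12%). Mybpc3, Myom1, Actn2, Myot, Pdlim5, Synpo2l, Des, Cryab and Pkp2 rose in both and Dsg2 fell in both, 9 and 1 of 47 members against 15.6 and 0.617% of all genes. With TMM factors 2 rose and 7 fell in the vehicle comparison (4.22 and 5.32% of all genes) and 2 rose and 4 fell in the 29P comparison (5.86 and 4.77%). Under TMM factors Synpo2l and Des rose in both, and Mylk3 and Dsg2 fell in both. Across the 47 genes the log2 fold changes of these comparisons had a Pearson r of 0.82, or 0.71 without Synpo2l and Des. Over all genes tested it was 0.46, but these include genes near 0 CPM in some libraries. Log2 fold changes of all genes ran from -11.9 to 10.1 in vehicle and -6.13 to 12.6 in 29P mice. Those of the members ran from -0.50 to 1.76 and -0.43 to 1.72, so these r are not a like comparison. Each r describes genes, which share libraries within each comparison and are not independent replicates. The column names hold a number before each library number, here called the column number. These numbers fall into 4 runs, and the labels do not say what a run is. When the runs entered the fit, the 12 and 2 of the 29P comparison became 3 and 0 (679 and 27 of all genes). Of the Sham 29P libraries only S4 shared a run with TAC 29P. These counts lean on single libraries, as do those of all genes. The 14 became 4 without S2 of TAC Veh, while 3648 higher genes of all tested became 432. The 12 and 2 became 4 and 0 without S14 of Sham 29P, the shallowest library. Over all genes tested 5097 higher and 181 lower became 1044 and 38 without S14.

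**Figure D1:**
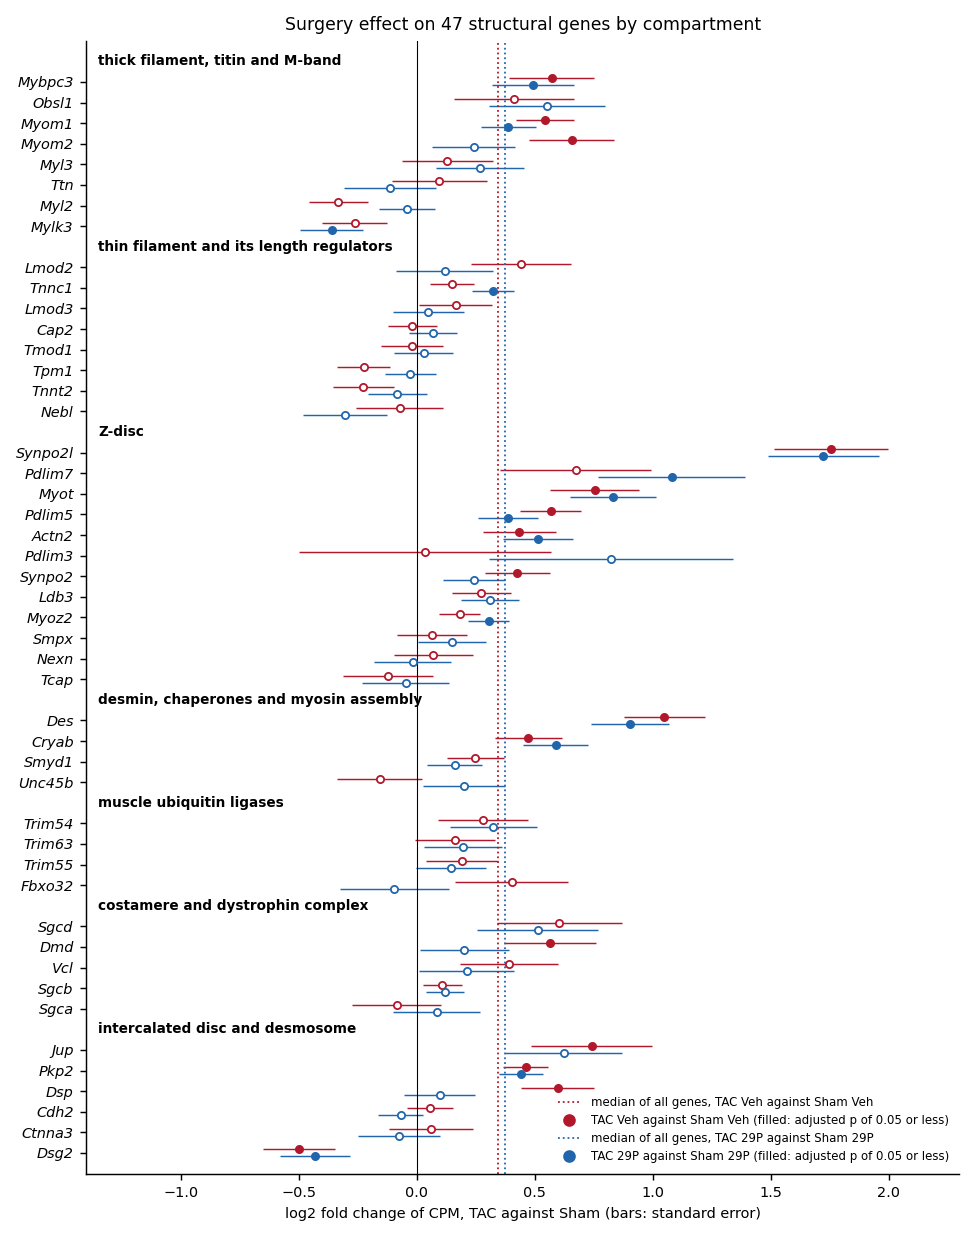
Log2 fold change of CPM (horizontal axis) for each of 47 genes, ordered by compartment, in TAC Veh against Sham Veh (red) and TAC 29P against Sham 29P (blue), with standard errors. Filled points have an adjusted p of 0.05 or less and dotted lines mark the medians of all genes (0.35 and 0.37). Synpo2l lies farthest right at 1.76 and 1.72, and Dsg2 farthest left at -0.50 and -0.43.

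**Figure D2:**
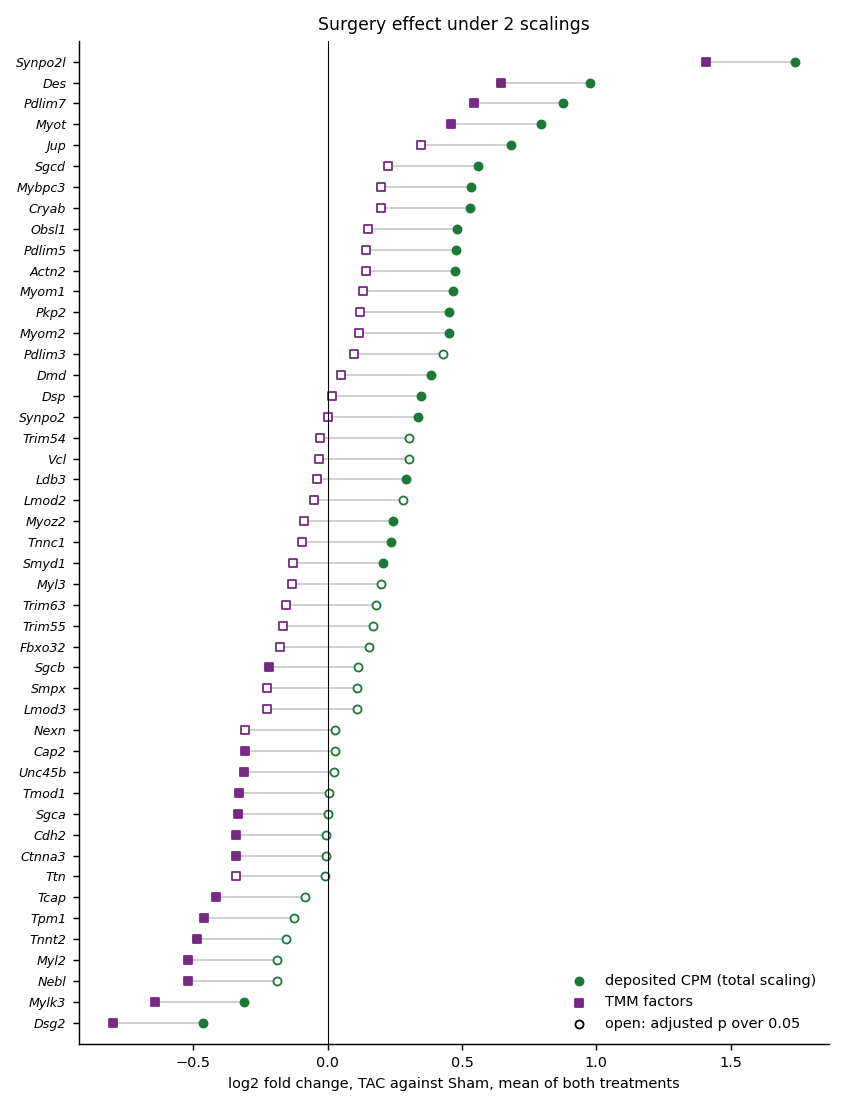
Log2 fold change of TAC against Sham, averaged over both treatments, for 47 genes on deposited CPM (green circles) and after TMM factors (purple squares), with filled symbols at an adjusted p of 0.05 or less. TMM factors moved every gene by -0.33, so 21 genes rose under the first scaling and 4 under the second.

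In the thick filament and M-band, 4 of 8 members rose (Mybpc3, Obsl1, Myom1 and Myom2) and 1 fell (Mylk3), with a median log2 fold change of 0.32. None of the 4 was called with TMM factors. Mybpc3, myosin-binding protein C, at chr2:91118144-91136516, measured 2029, 1201, 1763, 1132 and 1632 CPM in Sham Veh and 1618, 1313 and 1738 CPM in Sham 29P. It measured 2216, 2631 and 1952 CPM in TAC Veh and 1955 to 2626 CPM (median 2038) in TAC 29P. Only the highest Sham Veh library reached into the TAC range. The log2 fold change was 0.53 ± 0.13 (SE, limma adjusted p = 0.0026) and 0.20 with TMM factors. Myom1, a myomesin that cross-links myosin in the M-band, measured 1232, 899, 1063, 947 and 1028 CPM in Sham Veh and 1001, 974 and 1183 CPM in Sham 29P. In TAC Veh it measured 1472, 1551 and 1472 CPM and in TAC 29P 1196 to 1701 CPM (median 1346). All but 1 Sham library lay below every TAC library, with a log2 fold change of 0.47 ± 0.08 (limma adjusted p = 4.8e-04) and 0.13 with TMM factors.

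Obsl1, a cytoskeletal linker of the obscurin family, measured 65.7, 28.8, 56.9, 38.3 and 61.6 CPM in Sham Veh and 64.0, 29.6 and 55.0 CPM in Sham 29P. It measured 70.3, 70.7 and 52.3 CPM in TAC Veh and 61.0 to 80.3 CPM (median 67.3) in TAC 29P. The groups overlapped and the lowest Sham values were in S6, S14 and S19, the libraries with the largest mitochondrial share. Its log2 fold change of 0.48 (limma adjusted p = 0.031) lost its call without S2, S12, S14 or S19, over values of 0.32 to 0.59 across all single omissions, and was 0.15 with TMM factors. Mylk3, the kinase of the regulatory light chain, measured 516, 461, 599, 524 and 601 CPM in Sham Veh and 501, 567.6 and 645 CPM in Sham 29P. In TAC Veh it measured 403, 533 and 418 CPM and in TAC 29P 355 to 533 CPM (median 459). The groups overlapped, yet it fell by 0.31 on the log2 scale (limma adjusted p = 0.013) and by 0.64 with TMM factors. Titin, the molecular spring, had a log2 fold change of -0.01 (limma adjusted p = 0.96; -0.34 and not called with TMM factors), the value nearest 0 in the compartment. Its level was 2749, 2763, 2413, 2424 and 2436 CPM in Sham Veh and 2046, 2901 and 3242 CPM in Sham 29P. After TAC it was 2375, 2774 and 3080 CPM in TAC Veh and 1821 to 3931 CPM (median 2334) in TAC 29P. All 4 groups overlapped, and the highest value was in S18. The light chains Myl2 and Myl3 had log2 fold changes of -0.19 and 0.20 with limma adjusted p of 0.077 and 0.22, and with TMM factors Myl2 fell by 0.52 and Myl3 was at -0.13, not called.

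In the thin filament 1 of 8 members rose, with a median log2 fold change of 0.02. Tnnc1, the calcium sensor of the troponin complex, measured 1496, 1699, 1489, 1476 and 1657 CPM in Sham Veh and 1336, 1260 and 1492 CPM in Sham 29P. It measured 1769, 1692 and 1736 CPM in TAC Veh and 1527 to 1900 CPM (median 1678) in TAC 29P. The Sham 29P libraries lay below every TAC 29P library, whereas Sham Veh and TAC Veh overlapped. The log2 fold change was 0.24 ± 0.06 (limma adjusted p = 0.0066) but -0.10 with TMM factors. Tmod1, the cap of the pointed end of actin, stayed nearest 0 at 0.00 (limma adjusted p = 0.97), and 32.6% of its exon bases overlap Tstd2 on the other strand. Its libraries read 324, 231, 289, 327 and 359 CPM in Sham Veh and 305, 281 and 309 CPM in Sham 29P. The TAC libraries read 292, 310 and 294 CPM in TAC Veh and 276.4 to 391 CPM (median 293) in TAC 29P. The ranges overlapped. Log2 fold changes of the remaining members ran from -0.19 for Nebl, a nebulin relative that binds actin near the Z-disc, to 0.28 for Lmod2, a leiomodin that nucleates and lengthens actin. With TMM factors, Tnnt2 (troponin T), Tpm1, Tmod1, Cap2 (an actin-recycling protein) and Nebl fell, by 0.31 to 0.52.

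In the Z-disc 8 of 12 members rose and none fell on deposited CPM, with a median log2 fold change of 0.38. Synpo2l, a synaptopodin-like protein that binds actin and α-actinin, at chr14:20658946-20668354, showed the largest difference of the 47. It measured 166, 84.6, 101, 135 and 111 CPM in Sham Veh and 125, 78.7 and 105 CPM in Sham 29P. In TAC Veh it measured 563, 253 and 426 CPM and in TAC 29P 247 to 419 CPM (median 342). Every TAC library lay above every Sham library. The level was 3.34-fold higher after TAC, a log2 fold change of 1.74 ± 0.17 (limma adjusted p = 6.2e-06) and 1.41 with TMM factors, and it stayed called without any 1 library, at 1.61 to 1.90.

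Myot (myotilin, an actin cross-linker) measured 58.2, 47.5, 32.8, 52.5 and 53.1 CPM in Sham Veh and 38.3, 45.5 and 41.1 CPM in Sham 29P. It measured 102, 67.6 and 77.2 CPM in TAC Veh and 52.8 to 92.6 CPM (median 77.7) in TAC 29P. The groups overlapped through 1 TAC 29P library, S9, and the log2 fold change was 0.79 ± 0.13 (limma adjusted p = 2.5e-04), or 0.46 with TMM factors. Pdlim7, a PDZ and LIM domain adaptor, measured 18.4, 11.8, 20.8, 23.8 and 28.1 CPM in Sham Veh and 22.3, 6.70 and 18.6 CPM in Sham 29P. It measured 30.0, 25.9 and 40.4 CPM in TAC Veh and 22.8 to 35.5 CPM (median 30.2) in TAC 29P. The surgeries overlapped, and the lowest value was in S14. Pdlim7 rose by 0.88 ± 0.22 (log2, limma adjusted p = 0.0042), or 0.54 with TMM factors. Within 29P-treated mice its log2 fold change was 1.08 with S14 and 0.55, not called, without it.

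Of the other Z-disc genes, Actn2 (α-actinin, which cross-links actin), Pdlim5, Ldb3 (both α-actinin partners), Synpo2 (the relative of Synpo2l) and Myoz2 (a calcineurin-binding Z-disc protein) rose, with log2 fold changes of 0.24 to 0.48. None of these 5 was called with TMM factors, and Myoz2 and Ldb3 turned negative (-0.09 and -0.04). Nexn, an actin-binding protein, lay nearest 0 at 0.03 (-0.31 and not called with TMM factors). Nexn levels were 828, 1150, 800, 1083 and 856.2 CPM in Sham Veh and 726, 1261 and 999 CPM in Sham 29P. They were 915, 918 and 1120 CPM in TAC Veh and 798 to 1079 CPM (median 1028) in TAC 29P. All groups overlapped. Smpx, a small stretch-associated protein, and Tcap, which caps titin, had log2 fold changes of 0.11 and -0.08 with limma adjusted p of 0.38 and 0.61. With TMM factors Tcap fell by 0.42, the 1 Z-disc member that fell, and Smpx was at -0.22 and not called. Pdlim3, singled out after its values were seen, varied most: 30.7 and 35.7 CPM in S19 and S20 and 43.99 in S18, against 6.49 to 18.8 CPM in the 14 libraries without atrial transcripts. It and Tmod1 were the 2 of 47 members whose 3 highest values were in those 3 libraries, a pattern found in 1.36% of all genes tested. These 3 libraries are also all the libraries of 1 of the 4 runs of column numbers, so atrial transcripts and run cannot be told apart here. After TAC, averaged over both treatments, Pdlim3 was 1.35-fold higher on deposited CPM and 1.07-fold with TMM factors, called under neither. Outside these 3 libraries Pdlim3 measured 7.44, 6.49 and 9.41 CPM in Sham Veh and 12.9, 11.7 and 18.8 CPM in TAC Veh. In 29P mice it measured 9.59, 6.56 and 14.7 CPM in Sham and 9.39 to 17.1 CPM in TAC, which overlapped.

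**Figure D3:**
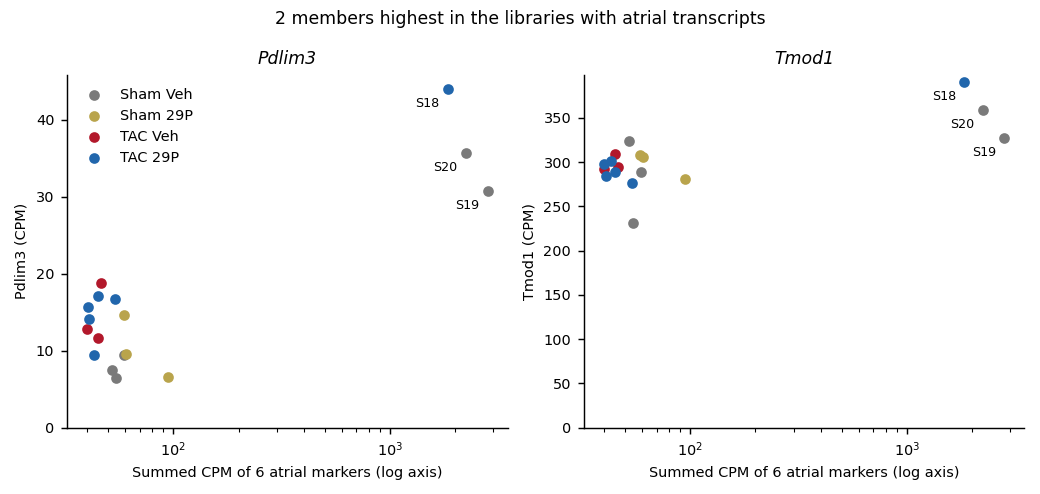
CPM of Pdlim3 and Tmod1 (vertical axes) against the summed CPM of 6 atrial markers (log axis) in each of 17 libraries, coloured by group. S18, S19 and S20 stand apart on the right and hold the highest values of both genes, 30.7 to 43.99 CPM for Pdlim3 and 327 to 391 CPM for Tmod1.

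Among desmin, the chaperones and the myosin assembly factors, 3 of 4 members rose, with a median log2 fold change of 0.37. Des, the muscle intermediate filament protein, at chr1:75360329-75368579, measured 1090, 797, 1137, 956 and 1120 CPM in Sham Veh and 1029, 664 and 1002 CPM in Sham 29P. It measured 2574, 2023 and 1765 CPM in TAC Veh and 1412 to 1956 CPM (median 1637) in TAC 29P. No TAC library overlapped a Sham library. Des rose 1.97-fold (log2 0.98 ± 0.12, limma adjusted p = 3.2e-05), with 0.64 under TMM factors and 0.88 to 1.04 when any 1 library was left out.

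Cryab (αB-crystallin, a chaperone of desmin) measured 972, 841, 926, 939 and 1015 CPM in Sham Veh and 916, 553 and 857 CPM in Sham 29P. It measured 1531, 1116 and 1286 CPM in TAC Veh and 1056 to 1302 CPM (median 1121) in TAC 29P. The surgeries did not overlap, and the log2 fold change was 0.53 ± 0.10 (limma adjusted p = 5.7e-04), but 0.20 and not called with TMM factors (adjusted p = 0.065). Of its exon bases 17.04% overlap Hspb2 on the opposite strand. Smyd1, a methyltransferase needed for sarcomere assembly, measured 437, 289, 360, 320 and 374 CPM in Sham Veh and 422, 372 and 356 CPM in Sham 29P. It measured 437, 431 and 388 CPM in TAC Veh and 383 to 496 CPM (median 430) in TAC 29P. The ranges overlapped, the limma adjusted p of 0.049 passed in only 6 of 17 single omissions, with log2 fold changes of 0.17 to 0.24, and the value turned to -0.13 with TMM factors. Unc45b, the myosin chaperone, stayed at 0.02 (limma adjusted p = 0.89) and fell by 0.31 with TMM factors. Levels of Unc45b were 206, 120, 139, 144 and 169 CPM in Sham Veh and 201, 106 and 140 CPM in Sham 29P. TAC levels were 141, 134 and 137 CPM in TAC Veh and 142 to 200 CPM (median 165) in TAC 29P. The surgeries overlapped.

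**Figure D4:**
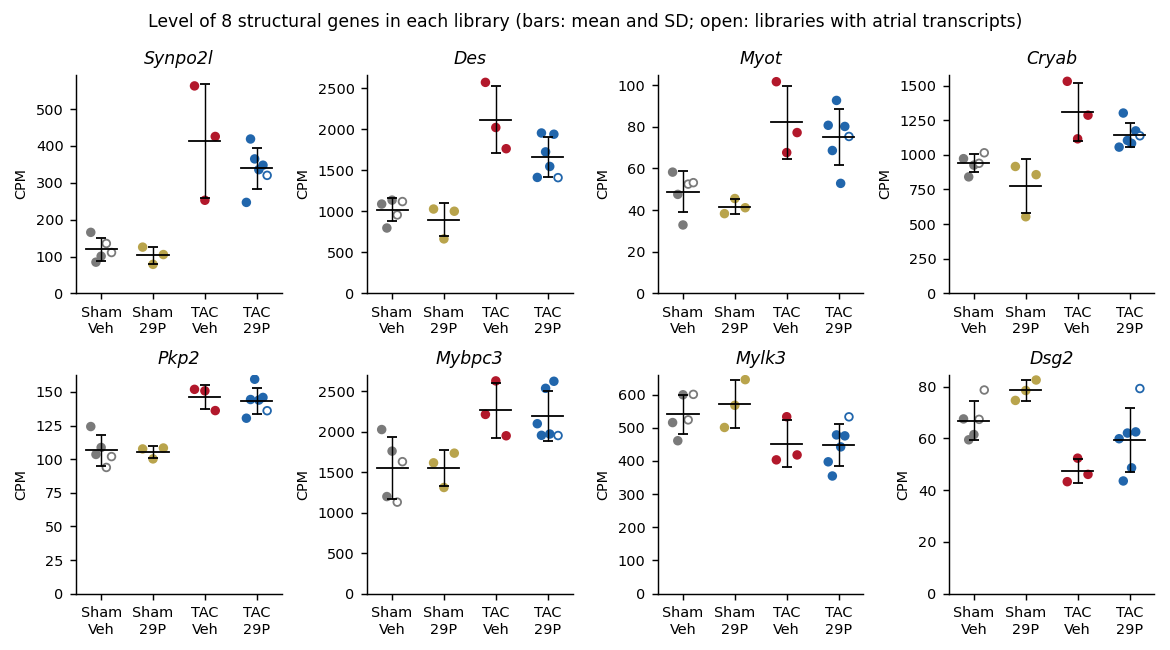
CPM of 8 members (vertical axes from 0) in each library of the 4 groups, with group means and SDs, and open symbols for the 3 libraries with atrial transcripts. On deposited CPM, TAC libraries lie above all Sham libraries for Synpo2l, Des, Cryab and Pkp2, while the ranges overlap for Myot, Mybpc3, Mylk3 and Dsg2. Overlap was not examined with TMM factors.

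None of the 4 muscle ubiquitin ligases, which mark muscle proteins for breakdown, passed the test. Fbxo32 (atrogin-1), the nearest to 0, measured 123, 132, 128, 68.9 and 91.0 CPM in Sham Veh and 92.9, 162 and 147 CPM in Sham 29P. It measured 168, 174 and 92.1 CPM in TAC Veh and 93.8 to 135 CPM (median 126) in TAC 29P. All groups overlapped, and the log2 fold change was 0.15 with a 95% interval of -0.20 to 0.50. Those of Trim63 (MuRF1), Trim54 (MuRF3) and Trim55 (MuRF2) were 0.18, 0.30 and 0.17, with limma adjusted p of 0.21, 0.063 and 0.19. With TMM factors Fbxo32, Trim63, Trim54 and Trim55 were at -0.18, -0.15, -0.03 and -0.16, none of them called.

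In the costamere 2 of 5 members rose, with a median log2 fold change of 0.30, and neither was called with TMM factors. Sgcd (δ-sarcoglycan), part of the dystrophin complex, measured 12.9, 5.15, 7.08, 8.22 and 7.14 CPM in Sham Veh and 9.82, 9.87 and 5.69 CPM in Sham 29P. It measured 16.3, 12.3 and 8.10 CPM in TAC Veh and 10.4 to 14.2 CPM (median 11.2) in TAC 29P. The groups overlapped, and the log2 fold change of 0.56 (limma adjusted p = 0.018) lost its call without S2 or S15, over values of 0.43 to 0.69 across single omissions. Dmd (dystrophin) measured 81.8, 59.7, 69.2, 69.3 and 66.1 CPM in Sham Veh and 67.0, 120 and 70.4 CPM in Sham 29P. It measured 106, 117 and 85.5 CPM in TAC Veh and 77.0 to 124 CPM (median 91.2) in TAC 29P. Of the Sham libraries, S5 and S14 lay within the TAC range, and the log2 fold change of 0.38 (limma adjusted p = 0.025) lost its call without S2, S4, S12 or S15, over values of 0.31 to 0.52. Vcl (vinculin, 25.5% of whose exon bases overlap Ap3m1) had a log2 fold change of 0.30, Sgcb (β-sarcoglycan) of 0.11 and Sgca (α-sarcoglycan) of 0.00, none of them called. Sgca and Sgcb fell with TMM factors, by 0.33 and 0.22. Sgca levels stood at 45.5, 36.2, 51, 35.5 and 54.7 CPM in Sham Veh and 50.9, 29.2 and 44.7 CPM in Sham 29P. With TAC they stood at 42.5, 45.8 and 36.5 CPM in TAC Veh and 32.9 to 54.4 CPM (median 43.4) in TAC 29P. No group stood apart.

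At the intercalated disc 3 of 6 members rose and 1 fell. The 3 that rose encode plaque proteins of the desmosome. Jup (plakoglobin) measured 154, 80.9, 145, 88.2 and 131 CPM in Sham Veh and 171, 72.2 and 130 CPM in Sham 29P. It measured 225, 173 and 186 CPM in TAC Veh and 125 to 232 CPM (median 184) in TAC 29P. The lowest Sham values were again in S6, S14 and S19, and the log2 fold change was 0.68 ± 0.18 (limma adjusted p = 0.0051), with 0.35 and an adjusted p of 0.080 under TMM factors. Pkp2 (plakophilin 2), at chr16:16213318-16272712, measured 124, 104, 109, 93.9 and 102 CPM in Sham Veh and 108, 100 and 108 CPM in Sham 29P. It measured 152, 151 and 136 CPM in TAC Veh and 130 to 159 CPM (median 144) in TAC 29P. No library overlapped between surgeries, and Pkp2 rose by 0.45 ± 0.07 (log2, limma adjusted p = 1.2e-04), with 0.12 and no call under TMM factors.

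Dsg2 (desmoglein 2, the desmosomal cadherin) went the other way. It measured 67.5, 59.5, 61.5, 67.4 and 78.7 CPM in Sham Veh and 74.7, 78.5 and 82.6 CPM in Sham 29P. It measured 43.3, 52.4 and 46.1 CPM in TAC Veh and 43.6 to 79.3 CPM (median 61.0) in TAC 29P. TAC Veh lay wholly below Sham Veh, whereas TAC 29P overlapped Sham 29P, with its highest value in S18. Dsg2 fell by 0.47 ± 0.11 on the log2 scale (limma adjusted p = 0.0021) and by 0.80 with TMM factors. Dsp (desmoplakin, which ties desmosomes to desmin) had a log2 fold change of 0.35 (limma adjusted p = 0.013) and 0.01 with TMM factors. Cdh2 (N-cadherin) and Ctnna3 (αT-catenin) were both at -0.01 and not called, and both fell by 0.34 with TMM factors. Cdh2, the nearest to 0, had 217, 199, 192, 169 and 205 CPM in Sham Veh and 215, 265 and 225 CPM in Sham 29P. It had 206, 198 and 206 CPM in TAC Veh and 202 to 249 CPM (median 226) in TAC 29P. TAC and Sham overlapped.

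In both treatments together, on deposited CPM, 4 members had every TAC library above every Sham library: Synpo2l, Des, Cryab and Pkp2. The same held for 9.52% of all genes tested. Overlap was not examined with TMM factors, under which Cryab and Pkp2 were not called. Sham values leaned on S6, S14 and S19: their 3 values were the lowest of all Sham values for 10 of 47 members and for 19.4% of all genes. Marker sums of other cell types also moved with surgery. Fibroblast markers summed to 594 to 1116 CPM in Sham and 1045 to 2266 CPM in TAC, with 5 of 5 called higher, and macrophage markers to 76.8 to 130 and 145 to 214 CPM, with 4 of 5 higher (2 and 3 with TMM factors). Endothelial markers summed to 430 to 879 and 761.8 to 1118 CPM, with 5 of 5 higher (2 with TMM factors), and smooth muscle markers to 141 to 457 and 216 to 453 CPM, with 1 of 5 higher (0 with TMM factors). Their part in the members' differences was not tested.

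Genes of the same structures outside the list were described likewise, by their own counts in the comparison averaged over both treatments. Of all genes tested 49.4% rose and 3.08% fell (14.3 and 12.7% with TMM factors). Of 21 other sarcomere genes 14 rose and 1 fell (5 and 4 with TMM factors), led by Myh7, the slow myosin heavy chain, at a log2 fold change of 3.82 (3.48 with TMM factors). Myoz1, a relative of Myoz2, and Flnc, an actin cross-linker of the Z-disc, followed at 1.41 and 1.28 (1.07, not called, and 0.95 with TMM factors), and Tnni3, cardiac troponin I, fell by 0.33. Of 17 other costamere genes 14 rose and none fell (3 and 3 with TMM factors). Plec, which links desmin to other structures, Lama2, a laminin chain outside the membrane, and Synm, a desmin partner, had log2 fold changes of 0.81, 0.65 and 0.65 (0.48, 0.32 and 0.31 with TMM factors, the last not called). Of 6 other intercalated disc genes 2 rose and 1 fell (0 and 2 with TMM factors). Ctnnb1 (β-catenin) was at 0.46 and Tjp1 (the scaffold ZO-1) at 0.28, and with TMM factors they were at 0.12 and -0.06. Dsc2, desmocollin 2, the partner cadherin of Dsg2 in the desmosome, fell by 0.39 and by 0.73 with TMM factors.

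The effect of 29P was then examined within TAC. No member was called with limma in TAC 29P against TAC Veh, as for all genes tested (0%), and none had an unadjusted p of 0.05 or less, against 1.98% of all genes. With TMM factors 1 member was higher and 1 lower at that unadjusted limma p, both among desmin, chaperones and myosin assembly. Of all 16218 genes 252 were higher and 148 lower. With TMM factors Des was at 0.80-fold and Unc45b at 1.23-fold. On deposited CPM, log2 fold changes ran from -0.34 (Des, 95% interval -0.69 to 0.01) to 0.31 (Dsg2, -0.00 to 0.62), with unadjusted limma p of 0.054 and 0.053 and an adjusted p of 1 for both. Both values point opposite to their own surgery difference, but TAC Veh is shared by these comparisons. The exact permutation p over 84 splits was 0.083 for Des and 0.14 for Dsg2, where 0.012 is the smallest possible. Synpo2l had a log2 fold change of -0.23 (-0.72 to 0.26) and Pkp2 of -0.03 (-0.22 to 0.16). The half-width of the 95% interval was 0.17 to 1.09 (median 0.34), and 29 of 47 intervals lay within ±0.5 while 46 lay within ±1. Differences smaller than these widths could not be resolved with 3 and 6 mice. Unc45b was the 1 member with no overlap, higher in TAC 29P at 142 to 200 CPM against 141, 134 and 137 CPM, a pattern found in 0.839% of all genes, and its log2 fold change of 0.27 had a limma p of 0.14 and an exact permutation p of 0.036, the smallest of the 47 members before any adjustment.

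Within Sham no member was called in Sham 29P against Sham Veh, where 1 gene of all tested was called (0.00617%). At an unadjusted limma p of 0.05 or less stood 5 members against 7.49% of all genes, each with an adjusted p of 0.65 to 0.67. Myoz2 measured 806, 711 and 845 CPM in Sham 29P and 886, 953, 969, 918 and 948 CPM in Sham Veh, with no overlap (1.51% of all genes lay lower without overlap) and a log2 fold change of -0.25 (exact permutation p = 0.018, limma unadjusted p = 0.011). Cdh2 measured 215, 265 and 225 CPM against 217, 199, 192, 169 and 205 CPM, overlapping slightly, at 0.25 (exact permutation p = 0.054, limma unadjusted p = 0.018). Nebl measured 294, 400 and 216 CPM against 287, 181, 215, 226 and 216 CPM, at 0.40 (exact permutation p = 0.18, limma unadjusted p = 0.041). Cryab and Tnnc1 had log2 fold changes of -0.31 and -0.20 (limma p of 0.045 and 0.047). S14 held the most extreme Sham 29P value in all 5, and without it none of the 47 had an unadjusted p of 0.05 or less.

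The test of whether the surgery difference depended on treatment gave no adjusted call among members, where 1 gene of all tested was called (0.00617%). Dsp was the 1 member at an unadjusted p of 0.05 or less, against 2.84% of all genes. It measured 1113, 617, 1000, 725 and 786 CPM in Sham Veh, 1285, 1397 and 1101 CPM in TAC Veh, 932, 1082 and 1051 CPM in Sham 29P and 968 to 1197 CPM (median 1109) in TAC 29P. Only the highest Sham Veh library reached the range of TAC Veh, while the 29P groups overlapped. Its surgery difference was 0.60 in vehicle and 0.10 in 29P mice, an interaction of -0.50 ± 0.22 (SE) with a limma adjusted p of 0.998. With TMM factors the TAC level of Dsp was 1.21-fold that of Sham in vehicle mice and 0.84-fold in 29P mice. Without S14 no member had an unadjusted p of 0.05 or less.

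**Figure D5:**
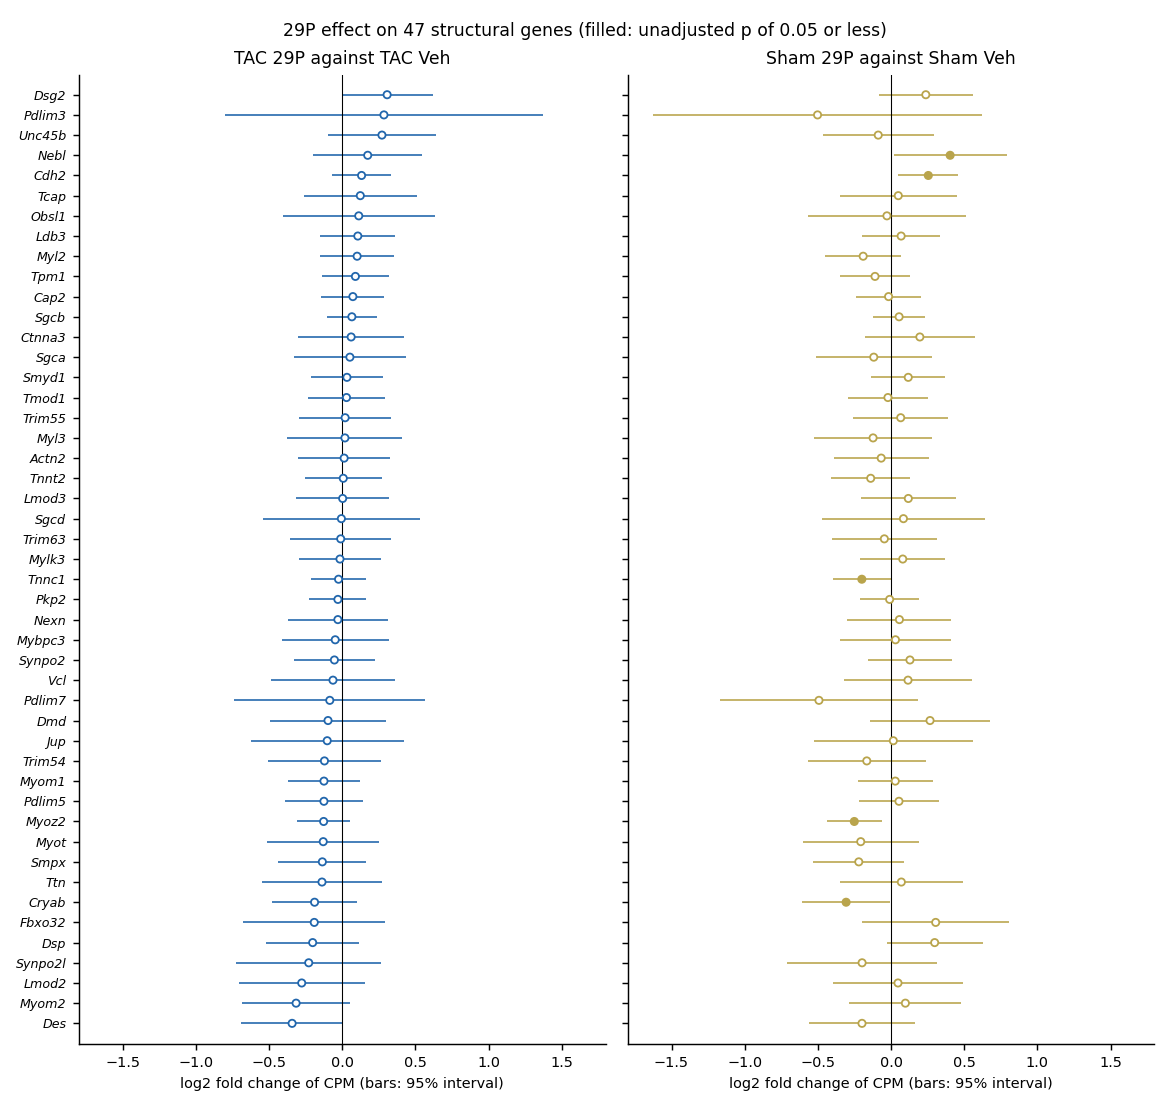
Log2 fold change of CPM with 95% intervals for 47 genes in TAC 29P against TAC Veh (left) and Sham 29P against Sham Veh (right), both panels in the order of the left. Filled points have an unadjusted p of 0.05 or less: none on the left and 5 on the right (Nebl, Cdh2, Tnnc1, Myoz2 and Cryab).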

How the data were processed

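RNA from 17 libraries was measured by polyA RNA-sequencing. Per the labels and the study's methods, the authors aligned reads to mm10 with STAR 2.3.7 and Partek and deposited CPM with 0.0001 added. The strand setting is not given in the sources used here. Low values were whole multiples of a step in 79.1 to 81.9% of cases, so the step gave an estimate of depth but reads were not restored and no count test was run. Library numbers ran to 20 with 3 absent. Values were tested as log2 CPM with no further constant, as small values were removed by the filter of 0.5 CPM in 3 libraries. limma 3.58.1 in R 4.3.3 fitted 1 mean per group (13 residual degrees of freedom) with a variance trend. Fits averaging both treatments weight them equally. Single values were also tested by exact two-sided permutation.

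Alternatives were TMM (30% trimmed by log ratio, 5% by mean level) and median-of-ratios factors, totals without 16 mitochondrial-encoded genes, and constants of 0.1 and 1. Others were different filters, only the groups compared, no variance trend, the run of column numbers (4 runs) as covariate, and each library left out. Levels per kilobase used GENCODE vM21 exons, in which all 47 genes have the same start and end as in the deposited table (column Stop less 1 base), which holds coordinates and other annotation from the authors. The rule named each member by compartment. Values per library were given for up to 3 called members with the largest difference in each, those nearest 0, and those with an unadjusted p of 0.05 or less for 29P or the interaction. Neighbouring genes were up to 3 called in each direction. Mylk3, Pdlim3 and the other members given without values per library were named after their values were seen. Members and lists were chosen with earlier results of these data known. The fits were checked on simulated data.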

Additional observations from a re-analysis of the deposited data

Results flagged for a closer look

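Among 94 sets of values (each member in Sham Veh and in TAC 29P), 5 held a library far from the others, judged by the gap to its neighbour as a share of the whole range. Chance alone would mark about 1 in 20 sets. In Sham Veh, S6 had the highest Myl2 level, 6737 CPM against 5165 to 5501 CPM in the others (gap 0.763 of the range). The other 4 were S18 of TAC 29P, a library with atrial transcripts. It had the lowest Myl3 (gap 0.731), Fbxo32 (0.797) and Trim63 (0.812) and the highest Tmod1 (0.753). Its Fbxo32 level was 93.8 CPM and its Trim63 level 88.1 CPM, where the other TAC 29P libraries began at 125 and 135 CPM. The surgery difference of Dsp was 0.60 in vehicle and 0.10 in 29P mice on the log2 scale, an interaction of -0.50 with an unadjusted limma p of 0.033. With TMM factors its TAC level was 1.21-fold that of Sham in vehicle mice and 0.84-fold in 29P mice.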

How the results depend on the processing

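The counts of called members depended most on scaling. In TAC Veh against Sham Veh (14 higher, 1 lower) they were 2 and 7 with TMM factors, 2 and 6 with median-of-ratios factors, 6 and 3 on totals without mitochondrial-encoded genes, 7 and 0 without S18, S19 and S20, 7 and 0 without S6, S14 and S19, and 2 lower without S14. In TAC 29P against Sham 29P (12 higher, 2 lower) they were 2 and 4 with TMM and with median-of-ratios factors. They were 5 higher without mitochondrial-encoded genes, 1 lower with no filter, and 0 lower with only the groups compared or without a variance trend. With the run of column numbers they were 3 and 0. They were 7 and 0 without S6, S14 and S19, and 4 and 0 without S14. Averaged over treatments (21 higher, 2 lower) they were 4 and 14 with TMM and with median-of-ratios factors and 11 and 6 without mitochondrial-encoded genes. With 1 library left out, they ran from 4 to 16 higher and 0 to 2 lower in vehicle mice. They ran from 4 to 15 and 0 to 2 in 29P mice, and 17 to 23 and 2 to 3 in the average. Counts over all genes moved too. In vehicle mice 3648 higher and 310 lower became 685 and 863 with TMM factors and 1588 and 504 without mitochondrial-encoded genes. In 29P mice 5097 and 181 became 950 and 774, and 2028 and 360, in that order. In the average 8011 and 499 became 2325 and 2064, and 4587 and 1023. In vehicle mice they were 2201 and 158 without S18, S19 and S20, and 2049 and 319 without S6, S14 and S19. Members at an unadjusted p of 0.05 or less for 29P within TAC (0) became 2 with TMM factors, 1 with median-of-ratios factors, 2 without mitochondrial-encoded genes, 2 with only the groups compared, 2 with the run covariate, and 1 without S14 or without S6, S14 and S19, with 0 to 2 over single omissions. Within Sham (5) they became 3 with no filter, 1 with only the groups compared, 3 without a variance trend, 2 without S18, S19 and S20, and 0 without S14 or without S6, S14 and S19, with 0 to 7 over single omissions. For the interaction (1) they became 0 without S14 or without S6, S14 and S19, with 0 to 4 over single omissions. Directions reversed under scaling alone. In 29P mice, Tnnc1 and Myoz2 went to -0.023 and -0.041 with TMM and -0.038 and -0.056 with median-of-ratios factors. In the average, TMM and median-of-ratios factors gave -0.10 and -0.11 for Tnnc1, -0.33 and -0.34 for Tmod1, -0.31 and -0.32 for Cap2, -0.089 and -0.099 for Myoz2, -0.041 and -0.051 for Ldb3, -0.31 and -0.32 for Unc45b, -0.13 and -0.14 for Smyd1 and -0.22 and -0.23 for Sgcb, and median-of-ratios factors -0.0075 for Synpo2. These factors shift all genes alike by construction, and otherwise the cause was not tested. No paired analysis was run, as the labels name no pairing of mice between groups. Runs of column numbers cross the groups only in part and were fitted only as the covariate above. Of the Sham 29P libraries only S4, and of the TAC Veh libraries only S2, share a run with TAC 29P. Run and group can thus hardly be told apart in comparisons of TAC 29P with these groups. Depth was an estimate, so no counting error could be given.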
